A study of Mus musculus with 3 samples.

Results

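The low-complexity class held the barcodes in which more than 200 and fewer than 1000 genes were detected, with at least 200 UMIs and at most 10% of UMIs from the mitochondrially encoded (mt-) genes. It took in 946 of the 14289 barcodes of 3 single-cell RNA libraries of mouse brain microglia. A UMI (unique molecular identifier) stands for 1 captured RNA molecule, and a barcode for the contents of 1 droplet. Each library was summed over its low-complexity barcodes and set against the sum over its own barcodes with 1500 to 3500 genes, 11417 barcodes in all, in CPM, the UMIs of a gene scaled to a total of 1000000. Members were chosen by the number of genes detected, a measured value, so the differences below are given as descriptions with no test, and the 95% counting intervals cover counting error only.

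The libraries came from hCD33M, hCD33m and Control mice, 1 library per genotype, all from animals of 8 weeks. hCD33M is the long isoform of human CD33, a sialic acid-binding receptor of myeloid cells, and hCD33m is the short isoform, which lacks the sialic acid-binding domain. Both isoforms were knocked into Rosa26 behind a floxed stop together with GFP and were expressed from the action of a Cre driven by Cx3cr1, a gene of microglia and other macrophages. The Control library was labelled wild type, and whether it carried Cre was not given for it in the sources used here. hCD33M and Control were male and hCD33m was female, so in these libraries the short isoform and female sex cannot be told apart. How many mice went into each library was not given for this experiment, and human CD33 and GFP are not genes of the mouse genome the reads were counted on. Microglia were released from perfused brain by mincing with transcription inhibitors present, enriched on Percoll and sorted as CD11b+ CD45low Cx3cr1+ cells.

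In droplet sequencing, a barcode with few genes can hold a small or damaged cell, a nucleus or RNA that was free in the suspension. Such barcodes are usually described by 3 kinds of transcript. The mitochondrially encoded mRNAs stay inside the mitochondria when a cell membrane leaks, nuclear long RNAs such as Malat1 stay with the nucleus, and cytoplasmic mRNAs can be lost. Ribosomal RNA carries no poly(A) tail, yet its fragments reach poly(A)-primed libraries, where gene models drawn over the rDNA repeats collect them.

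Gm42418, the gene that marked the class most strongly, is such a model. In mm10 with the GENCODE vM21 annotation it lies on chromosome 17 from 39846958 to 39848788 on the plus strand as a lincRNA of 1831 bases. Its first 1244 bases, 67.9% of it, are the exact reverse complement of the annotated rRNA transcript of CT010467.1 on the minus strand, which is 1849 bases long. The start of Gm42418, the rRNA letters opposite it and the place where the shared stretch ends are printed because they show that this gene model carries rRNA letters. Capitals mark bases shared with the rRNA transcript on the other strand, lower case marks bases beyond that transcript's first base, and all are written 5′ to 3′. The gene CT010467.1 as a whole spans all 1831 bases of Gm42418. The first and second lines cover chr17:39846958-39846987 on the plus and on the minus strand, and the last covers chr17:39848187-39848216 on the plus strand. The capitals of the last line are the letters with which mammalian small-subunit rRNA ends, so in this place the strand of Gm42418 reads as rRNA does.
Gm42418 start: AGGGCAAGTCTGGTGCCAGCAGCCGCGGTA
CT010467.1 rRNA opposite: TACCGCGGCTGCTGGCACCAGACTTGCCCT
Gm42418 boundary: GCGGAAGGATCATTAacgggagactgtgga
AY036118 lies within the same stretch on the minus strand (chr17:39847113-39848035) and covers bases 156 to 1078 of Gm42418 on its other strand, so reads of these genes can be told apart only by strand. Gm26917 (chr17:39843013-39846341, plus strand) ends 616 bases before Gm42418 starts. Lars2, the nuclear gene of the mitochondrial leucyl-tRNA synthetase (chr9:123366927-123462666, plus strand), is listed with the others because it names the class. Gm26917 and Lars2 shared no 16-base word with that rRNA transcript, so of the 4 genes called rRNA-derived below only Gm42418 and AY036118 were found to hold its sequence.

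Of the barcodes within the study's limits of 200 to 8000 genes, at least 200 UMIs and at most 10% mt- UMIs, the class made up 281 of 5046 in hCD33M, 468 of 5612 in hCD33m and 197 of 3412 in Control. The paper reports fewer cells kept in each library, so these totals are not its own. These are shares of 5.57% (exact Clopper-Pearson 95% interval 4.95 to 6.24%), 8.34% (7.63 to 9.09%) and 5.77% (5.01 to 6.61%). The interval of hCD33m did not overlap those of the other libraries, while those of hCD33M and Control did overlap. With 1 library per genotype this compares libraries and not genotypes. A further 41, 86 and 63 barcodes in the hCD33M, hCD33m and Control libraries had fewer than 1000 genes but more than 10% mt- UMIs and were left out.

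Low-complexity barcodes were shallow as well as poor in genes. Median depth was 969, 938 and 1109 UMIs in the hCD33M, hCD33m and Control libraries, against 5110, 5187 and 5463 UMIs in the barcodes with 1500 to 3500 genes. They summed to 281325, 458850 and 217213 UMIs, against 22143886, 23749257 and 15610963 UMIs, so a gene without a UMI in the class could still be present at up to 10.7, 6.54 and 13.8 CPM, the levels that 3 UMIs stand for. When every barcode was thinned to 500 UMIs, the median number of genes was 376, 369 and 360 in low-complexity barcodes, against 376, 372 and 373 in barcodes with 1500 to 3500 genes. At equal depth the class was thus within 13 genes of the deeper barcodes by this measure in each library. The lowest UMI total of any barcode was 501, 499 and 500, so the limit of 200 UMIs removed none.

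The rRNA-derived genes stood furthest above the deeper barcodes. Gm42418 was at 49761, 38804 and 61272 CPM in low-complexity barcodes of hCD33M, hCD33m and Control, against 3491, 3546 and 3668 CPM in barcodes with 1500 to 3500 genes. The log2 ratios were 3.83 (95% counting interval 3.81 to 3.86), 3.45 (3.43 to 3.48) and 4.06 (4.03 to 4.09), a mean of 3.78 ± 0.31 (SD over 3 libraries). Its level in the deeper barcodes was nearly the same in the 3 libraries, so the spread between libraries came from the class itself. Per barcode the median share of Gm42418 was 4.82, 4.02 and 2.45% of UMIs, against 0.266, 0.287 and 0.224%, and its highest share in the class was 17.3, 13.7 and 24%.

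The other genes of the rRNA-derived list also stood higher, by less. Lars2 was at 928, 837 and 893 CPM in the class, against 125, 111 and 115 CPM, a log2 ratio of 2.92 ± 0.04 (SD, n = 3 libraries). After thinning to 500 UMIs, 33.1, 32.3 and 29.4% of low-complexity barcodes held a Lars2 UMI, against 5.79, 5.87 and 5.33%. Lars2 thus differed by almost the same amount in each library, unlike Gm42418, whose ratio in Control exceeded that in hCD33m. Gm26917 had log2 ratios of 2.29, 2.49 and 2.07, and AY036118 of 1.92, 2.19 and 2.21. Summed, the 4 genes came to 51659, 40833 and 62888 CPM in the class, against 3854, 3899 and 3945 CPM, a 13.1-fold difference in the mean, and each gene was at least 2-fold higher in each library. Against the nearest deeper barcodes, from 1000 up to 1500 genes, the mean log2 ratio of the list was 0.95 ± 0.37 in place of 3.71 ± 0.30, which is under 2-fold.

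Genes at least 2-fold apart in a library, with at least 20 CPM in the higher sum, were common in both directions. Of 7544, 7337 and 7404 genes in the hCD33M, hCD33m and Control libraries, 13.5%, 10.7% and 12.1% were higher in the class and 10.0%, 9.39% and 9.89% were lower. Only 203 of 6770 genes (3.0%) were higher in all 3 libraries and 169 (2.50%) were lower in all 3. A level of 20 CPM corresponds to 5.63, 9.18 and 4.34 UMIs in the class, so many of the single-library differences rest on few molecules. The 2-fold counts depended on the scaling. Of the genes 2-fold apart, 57.4, 53.3 and 55.0% were higher in the class with plain CPM, with TMM factors 24.9, 20.6 and 32.1%, and with DESeq2 size factors 34.5, 32.2 and 41.6%. The median log2 ratio over all genes was 0.20, 0.18 and 0.10 on plain CPM, -0.12, -0.14 and -0.13 with TMM, and -0.01, -0.00 and -0.04 with DESeq2 factors, and differences smaller than these shifts have no fixed direction.

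**Figure D1:**
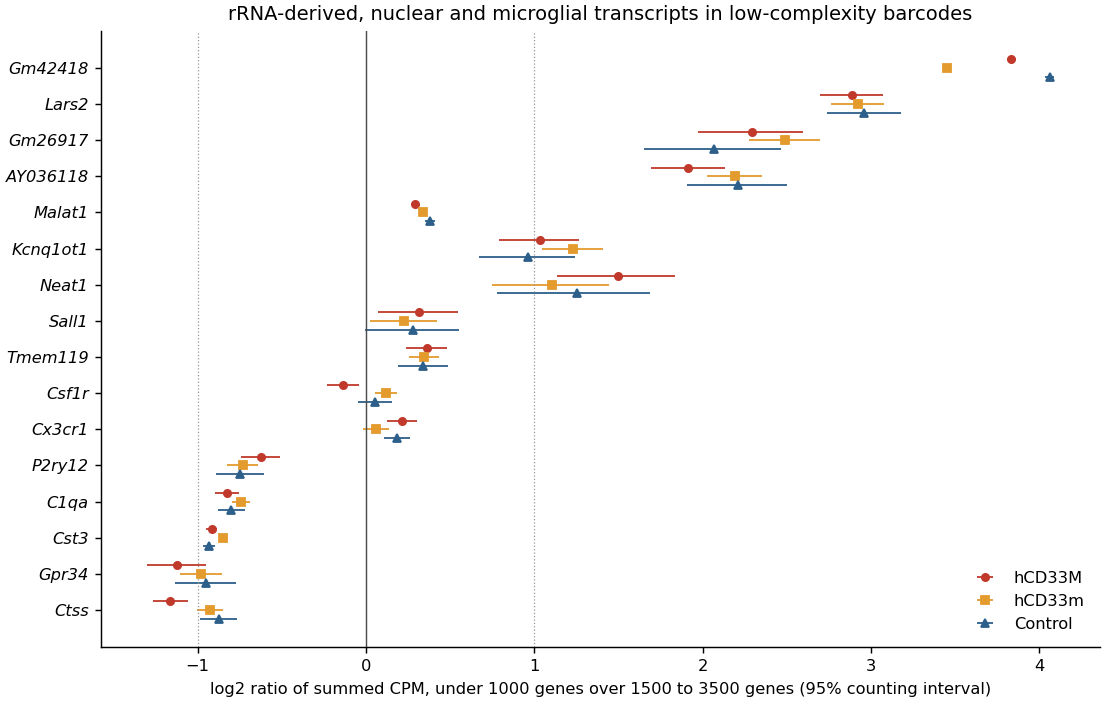
Log2 ratio of summed CPM, low-complexity barcodes over barcodes with 1500 to 3500 genes, for 16 named genes in the hCD33M, hCD33m and Control libraries. Points are libraries, bars are 95% counting intervals and dotted lines mark 2-fold differences. Gm42418 and Lars2 lie far to the right at means of 3.78 and 2.92, Malat1 lies near 0.34 and the microglial markers lie on both sides of 0.

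Malat1, the abundant nuclear long RNA, differed little. It was at 48215, 53373 and 48653 CPM in the class, against 39431, 42189 and 37375 CPM, log2 ratios of 0.29, 0.34 and 0.38. These exceeded the median of all genes by 0.09, 0.16 and 0.28, and the mean ratio of 0.34 ± 0.05 was 0.08 with TMM factors and 0.18 with DESeq2 size factors. The median share per barcode went the other way, at 3.25, 3.49 and 3.18% in the class against 3.92, 4.19 and 3.77%. The higher sum thus came from a tail of barcodes that reached 20.5, 24.5 and 22.3% Malat1.

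Other nuclear long RNAs stood higher than Malat1. Neat1, the scaffold of paraspeckles, was at 256, 159 and 198 CPM in the class, against 90.7, 74.0 and 83.1 CPM (log2 ratios 1.5, 1.10 and 1.25). Kcnq1ot1, an imprinted antisense RNA held at chromatin, was at 540, 575 and 493 CPM, against 264, 245 and 253 CPM (1.03, 1.23 and 0.96). Xist, which coats the inactive X chromosome, could be read only in the hCD33m library, the only one from a female, with 4437 CPM in the class against 2112 CPM (log2 ratio 1.07, 1.01 to 1.14). Over the list of nuclear long RNAs the mean log2 ratio was 0.36 ± 0.05, and 0.11 with TMM factors.

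The sums hid 2 ranges of barcodes, which were seen when Gm42418 was plotted against the mt- share. A line at 3% Gm42418, drawn after the data had been seen, put 163 of 281 hCD33M, 279 of 468 hCD33m and 98 of 197 Control low-complexity barcodes above it (58.0, 59.6 and 49.7%), against 39, 43 and 35 barcodes (0.926, 0.971 and 1.26%) with 1500 to 3500 genes. The median mt- share was 0.335, 0.391 and 0.405% of UMIs above the line and 3.23, 2.81 and 3.65% below it. Less than 1% mt- UMIs were found in 152 of 163, 258 of 279 and 82 of 98 barcodes above the line, and in 20 of 118, 58 of 189 and 12 of 99 below it. Between 2 and 4% Gm42418 lay 19, 62 and 11 low-complexity barcodes (6.76, 13.2 and 5.58%). The highest share below the line was 2.55, 2.98 and 2.45%, and the lowest above it 3.16, 3.01 and 3.15%. Whether the line parts 2 types or cuts 1 continuous range was not tested. Detected genes had a median of 651, 591 and 695.5 above the line and 667, 647 and 695 below it, and UMIs one of 976, 891 and 1147.5 above it and 964.5, 1013 and 1084 below it, so barcodes above the line were shallower in hCD33m only.

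**Figure D2:**
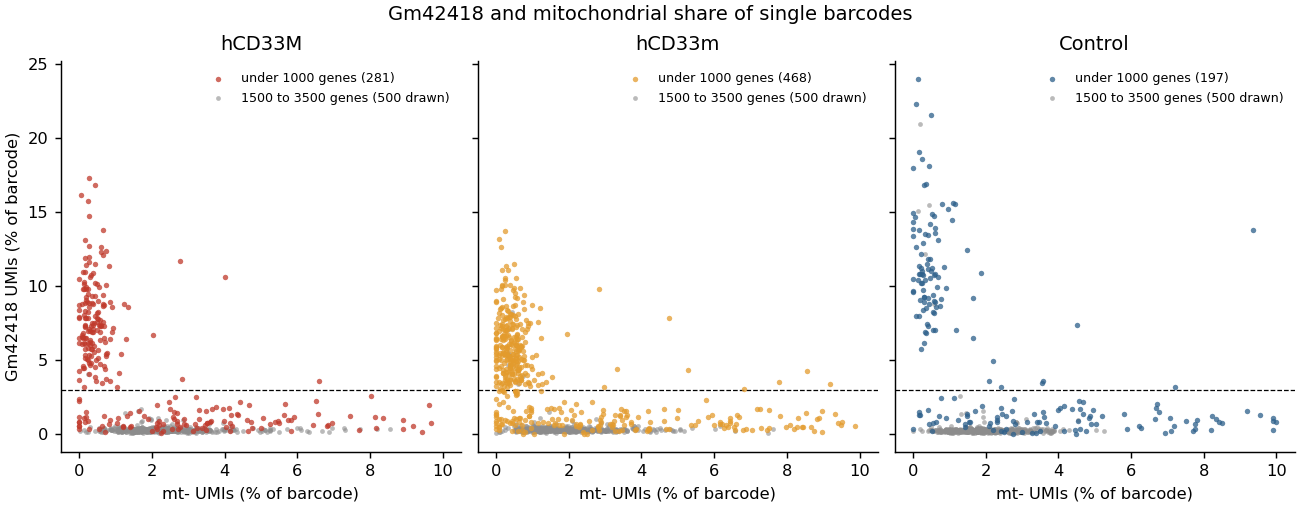
Share of Gm42418 UMIs against share of mt- UMIs, both in percent, for each low-complexity barcode (coloured) and for 500 randomly drawn barcodes with 1500 to 3500 genes (grey) of the same library. The dashed line is at 3% Gm42418. Most coloured points above it have under 1% mt- UMIs, while those below it spread over the mt- range.

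The mt- genes differed along the line by way of its choice, since it was drawn on the plot against the mt- share, and their values are a description of the ranges. The mitochondrial mRNAs, 13 genes of the respiratory chain, were at 5064, 5653 and 6830 CPM in low-complexity barcodes above the line and at 36590, 34532 and 42514 CPM below it, with 23645, 20161 and 19815 CPM in barcodes with 1500 to 3500 genes. Both ranges thus lay outside the deeper barcodes on opposite sides, with mean log2 ratios of -1.86 ± 0.34 above the line and 0.84 ± 0.24 below it. mt-Nd2, a subunit of complex I, was at 216, 225 and 313 CPM above the line and at 2734, 2776 and 3348 CPM below it.

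The sum of the nuclear long RNAs, most of which is Malat1, was also lower above the line than below it. It was 31671, 37370 and 28093 CPM above the line and 72468, 87277 and 70605 CPM below it, with 39793, 44794 and 37719 CPM in barcodes with 1500 to 3500 genes. The mean log2 ratio was -0.34 ± 0.08 above the line and 0.91 ± 0.05 below it, and Malat1 alone had -0.39 and 0.90, so its small ratio over the whole class averaged opposite differences. Neat1 and Kcnq1ot1 did not follow Malat1 and stood above the deeper barcodes on both sides in each library, with mean log2 ratios of 1.51 and 1.05 above the line and 0.94 and 1.11 below it. Xist in hCD33m was likewise higher on both sides, at 0.83 and 1.34. The genes that led the low-Gm42418 range over the other one included unnamed noncoding RNAs. Gm26699 was at 12.4, 0 and 0 CPM above the line and at 192, 244 and 239 CPM below it, and Gm32036 was at 0, 7.64 and 9.22 CPM and at 159, 208 and 239 CPM. The rRNA-derived genes stayed above the deeper barcodes on both sides, with mean log2 ratios of 4.44 ± 0.43 above the line and 1.38 ± 0.12 below it. Lars2, which the line did not use, was at 1441, 1230 and 1530 CPM above it and at 234, 315 and 258 CPM below it.

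Lists of lysosomal and cytoplasmic genes also differed between the ranges, in both directions. The lysosomal list differed from barcodes with 1500 to 3500 genes by a mean log2 ratio of -0.27 ± 0.02 above the line and -0.91 ± 0.07 below it, and the glycolytic list by -0.52 ± 0.17 and -1.24 ± 0.24. The leading named genes of the high-Gm42418 range over the low one included Naglu, which encodes a lysosomal hydrolase, with a log2 ratio of 1.81, and Pkm, the last enzyme of glycolysis, with 2.11. Summed ribosomal protein mRNAs went the other way, at -1.31 ± 0.03 above the line and -0.49 ± 0.14 below it. Their median share per barcode did so in hCD33M only. It was 2.75, 2.53 and 3.13% of UMIs above the line and 5.06, 1.88 and 2.73% below it. The sum of the actin cytoskeleton list also went the other way, at -0.90 ± 0.12 above the line and -0.53 ± 0.14 below it. The 9 early-response genes that the study named for its hCD33m-enriched cluster, Fos and Jun among them, were at -0.92 ± 0.06 above it and 0.14 ± 0.31 below it. A list of damage and stress genes was at -0.31 ± 0.12 above it and -0.56 ± 0.46 below it.

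**Figure D3:**
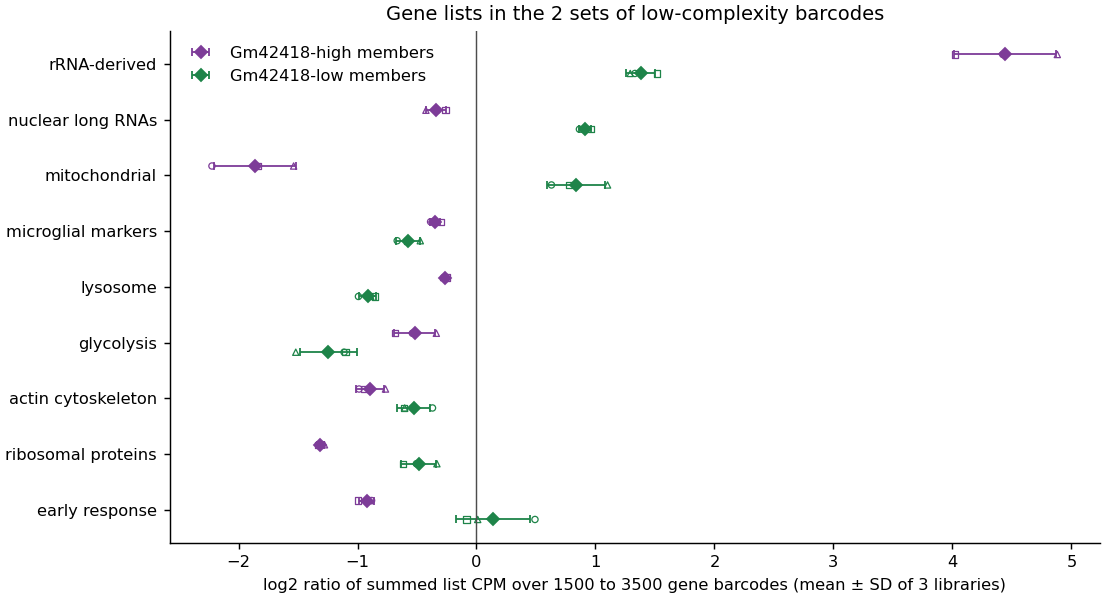
Log2 ratio of summed CPM over barcodes with 1500 to 3500 genes for 9 gene lists, in low-complexity barcodes with at least 3% Gm42418 and in those with less. Filled points and bars are the mean ± SD of 3 libraries and open symbols are the libraries. The mitochondrial and nuclear long RNA lists lie below 0 in the first range (-1.86 and -0.34) and above 0 in the second (0.84 and 0.91).

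The class remained microglial by its markers. Of 20 microglial markers, the median low-complexity barcode held UMIs of 15 in each library, against 19, 19 and 20 in the deeper barcodes, and after thinning to 500 UMIs of 12, 12 and 12, against 13, 14 and 14. Fewer than 5 of the markers were held by 4 of 281, 3 of 468 and 5 of 197 low-complexity barcodes. Among the deeper barcodes these were 1 of 4213, 2 of 4427 and 0 of 2777, so marker-poor barcodes were few but more frequent in the class. The markers summed to 49804, 55419 and 55241 CPM in the class, against 70362, 73979 and 73597 CPM, a mean log2 ratio of -0.44 ± 0.05 that was -0.70 with TMM factors and -0.60 with DESeq2 size factors. None of the 20 was 2-fold apart in all 3 libraries, against 3.0% (higher) and 2.50% (lower) of all genes, 13 were lower in each library and 4 were higher in each on plain CPM, of which only Tmem119 stayed higher in each with TMM factors. The markers stayed on both sides of the Gm42418 line, with mean log2 ratios of -0.35 ± 0.04 above it and -0.58 ± 0.10 below it.

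The retained markers differed by gene. Tmem119, a membrane protein specific to microglia within the brain, was at 1919, 2175 and 1749 CPM in the class, against 1495, 1713 and 1383 CPM, a mean log2 ratio of 0.35 ± 0.01. Sall1, the transcription factor that maintains microglial identity, was at 540, 462 and 497 CPM, against 435, 395 and 409 CPM (0.27). Both were higher in each library on plain CPM, though with TMM factors the means shrank to 0.09 and 0.02. Cx3cr1, the fractalkine receptor and a gene of the sort, had a mean log2 ratio of 0.15, which became -0.10 with TMM and -0.00 with DESeq2 factors. Csf1r, the survival receptor of microglia, was at 0.01, and at -0.24 and -0.14 with those factors, so neither has a fixed direction.

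P2ry12, the purinergic receptor of resting microglia, was at 2097, 2009 and 1846 CPM in the class, against 3236, 3341 and 3103 CPM (mean log2 ratio -0.70 ± 0.07). After thinning, 54.8, 58.7 and 53.8% of low-complexity barcodes held a P2ry12 UMI, against 75.5, 77.9 and 75.6%, while Tmem119 was held by 55.5, 61.0 and 51.8%, against 51.0, 57.1 and 50.9%. C1qa, a chain of the complement initiator, was at 5631, 6244 and 5699 CPM, against 9985, 10457 and 9924 CPM (-0.79 ± 0.04). Gpr34, a lysophosphatidylserine receptor, was the lowest of the 20 at -1.02, with 938, 1151 and 1165 CPM against 2044, 2267 and 2251 CPM. Ctss, the lysosomal protease cathepsin S, was next at -0.99.

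The ribosomal protein mRNAs were lower than in the barcodes with 1500 to 3500 genes in each library. Their sum was 40071, 34536 and 47571 CPM in the class, against 75797, 68261 and 78832 CPM, a mean log2 ratio of -0.88 ± 0.13 that was -1.13 with TMM and -1.03 with DESeq2 factors. Of 81 such genes 79 passed 20 CPM in each library, all 79 were lower in each, and 6 were at least 2-fold lower in each, beside 2.50% of all genes. Against the nearest deeper barcodes, from 1000 up to 1500 genes, which held 57563, 54975 and 39709 CPM, the mean was -0.31 ± 0.50, and in Control the class was the higher one. The actin cytoskeleton list (-0.72 ± 0.06) held a wide range, with Pfn1, an actin-monomer binder, at -1.39, Tmsb4x, another, at -1.26, and Actb itself at 0.02. The lysosomal list (-0.52 ± 0.04) ran from Ctsl, the protease cathepsin L, at -1.16 to Laptm5, a lysosomal membrane protein, at 0.83. MHC class I genes (-0.32 ± 0.03) also spread, from H2-T23 at -0.94 and H2-D1 at -0.67 to Tap1, a peptide transporter, at 0.53 and Tapbp, its partner tapasin, at 0.78.

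The direction of the mitochondrial list differed by library. It summed to 18466, 18056 and 24690 CPM in the class, against 23645, 20161 and 19815 CPM, log2 ratios of -0.36, -0.16 and 0.32. The rule of the class also caps the mt- share at 10%, and without barcodes over 5% mt- UMIs on either side the mean ratio was -0.76, against -0.07 as first given, and with totals that left out rRNA-derived, mt- and Malat1 UMIs it was 0.026.

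Outside the rRNA-derived list, most of the highest ratios belonged to long coding transcripts. Among 1659 genes ranked by their mean log2 ratio, the 10 highest included Usp35, a deubiquitinase, at 256, 129 and 161 CPM in the class against 48.7, 41.9 and 40.1 CPM (2.01), and Rgl2, an exchange factor for Ral GTPases, at 355, 360 and 304 CPM against 85.0, 89.0 and 81.2 CPM (1.99). Gm32849, annotated as a lincRNA of 1899 bases, followed at 1.87, Ccdc88b, a microtubule-linked protein of immune cells, at 1.84, and the unconventional myosins Myo9a and Myo9b at 1.78 and 1.67. The lowest 10 were mostly short. Ubb, a polyubiquitin precursor, was at 256, 388 and 433 CPM in the class against 1254, 1311 and 1433 CPM (-1.93), and Btf3, a factor that binds nascent chains at the ribosome, at 81.8, 85.0 and 106 CPM against 323, 304 and 337 CPM (-1.83). Rps27l (-1.96), Cox5a, a subunit of cytochrome c oxidase (-1.88), and Hpgd, the prostaglandin-degrading enzyme (-1.74), were in the same group. The longest annotated coding transcripts had a median of 4610.5 bases for the 6 of the 10 highest that had one, and 1063 bases for the 10 lowest.

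The same order ran through all genes with a length. Over 6620 of 6770 genes, divided into 5 equal groups by transcript length with median lengths of 1231, 2181, 3185.5, 4433.5 and 7032 bases, the median log2 ratio was -0.73, -0.18, 0.10, 0.33 and 0.57. In the shortest group 5 genes were 2-fold higher and 120 were 2-fold lower in all 3 libraries, and in the longest 91 were higher and 4 were lower. Without the ribosomal protein genes the shortest group was at -0.69. The pattern held on both sides of the Gm42418 line, from -0.71 to 0.57 above it and from -0.48 to 0.51 below it, so unlike the mt- genes it did not separate the ranges. Genes of similar length are not independent of each other.

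**Figure D4:**
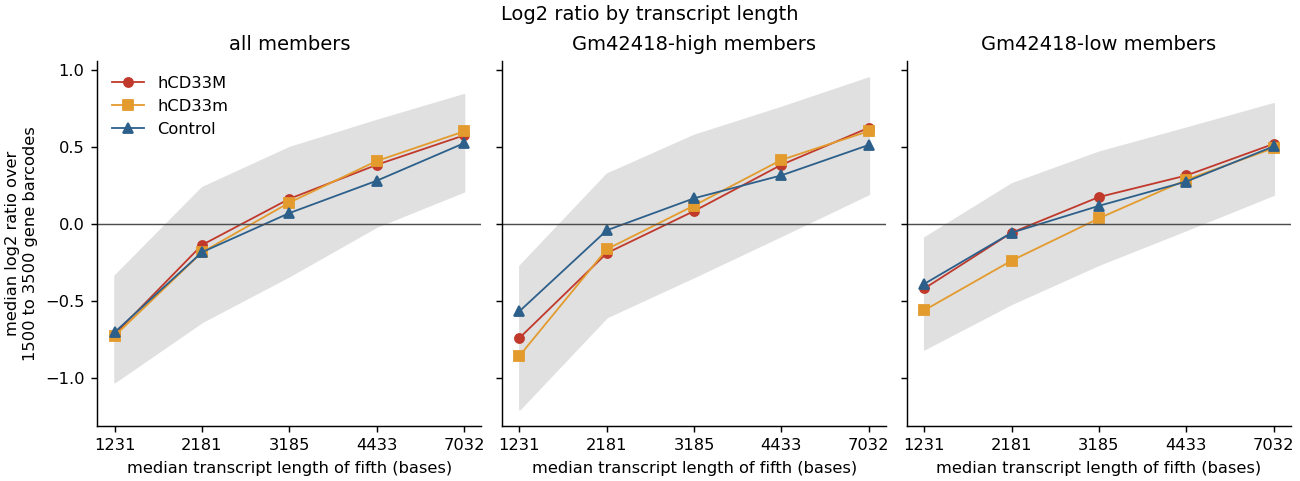
Median log2 ratio of summed CPM, low-complexity over 1500 to 3500 genes, in 5 equal groups by transcript length (median lengths 1231 to 7032 bases), for all low-complexity barcodes and for those above and below 3% Gm42418. Lines are libraries and the grey band is the interquartile range over genes. The lines climb from left to right in each panel, from -0.73 to 0.57 in the mean for the whole class.

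The threshold of 1000 genes did not fall at a step. Within 100 genes below it lay 35, 47 and 27 barcodes, and within 100 genes above it 25, 46 and 31. The rRNA-derived genes summed to 54322, 38984 and 65246 CPM just inside, against 66499, 22152 and 67166 CPM just outside, and microglial markers to 57533, 62146 and 65918 CPM, against 56801, 72087 and 62274 CPM. Barcodes with more than 3% Gm42418 numbered 18, 26 and 13 inside and 14, 13 and 18 outside. Only hCD33m was lower in rRNA-derived transcripts just past the threshold. From 1000 genes up to the start of the comparison range at 1500 these were still 30639, 15667 and 38191 CPM, and 33.9, 20 and 35.1% of the barcodes there held more than 3% Gm42418.

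**Figure D5:**
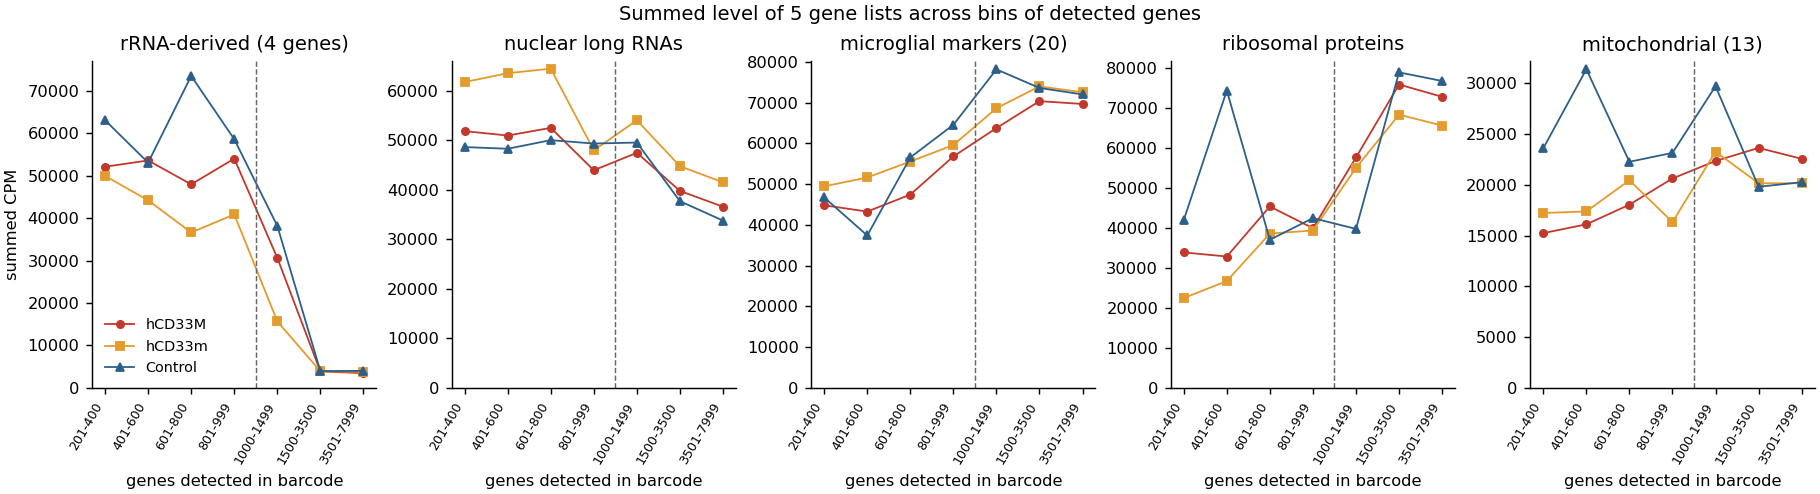
Summed CPM of 5 gene lists across 7 bins of detected genes per barcode in the 3 libraries, with a dashed line at the 1000-gene limit of the class. rRNA-derived transcripts are high to the left of the line and remain at 30639, 15667 and 38191 CPM in the bin just right of it, while microglial markers are higher to its right and ribosomal protein mRNAs are highest from 1500 genes on. The leftmost bin holds 14, 28 and 8 barcodes.

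Within the class, ribosomal protein mRNAs were uneven in 1 library. Between 400 and 600 genes they summed to 74278 CPM in Control, against 32813 CPM in hCD33M and 26672 CPM in hCD33m. More than 15% ribosomal protein UMIs were found in 4, 9 and 7 low-complexity barcodes, and all 7 in Control lay below the Gm42418 line. These barcodes held a median of 5, 12 and 8 microglial markers, fewer than the 15 of the class.

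Transcripts foreign to microglia were rare in the class and lay in few barcodes. Ttr, the transthyretin of the choroid plexus, gave 0, 1 and 282 UMIs in the hCD33M, hCD33m and Control low-complexity barcodes, against 3, 9 and 8 UMIs in the deeper ones. In Control 280 of the 282 UMIs lay in 1 barcode, in which Ttr was 26.2% of 1070 UMIs and only 3 UMIs came from microglial markers. That barcode also held 9 UMIs of Enpp2, another choroid plexus gene, and without it the Control low-complexity barcodes held 2 Ttr UMIs. Ttr therefore did not mark the class as a whole. The summed levels of Gm42418 and Lars2 were higher in the class than in the deeper barcodes in each library. Yet 118 of 281, 189 of 468 and 99 of 197 low-complexity barcodes lay below the 3% Gm42418 line. Cxcl13, a chemokine for B cells, gave 0, 2 and 0 UMIs, against 6, 2 and 2 UMIs, so it did not mark the class either.

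Haemoglobin mRNA was found almost only in 1 library. Hbb-bs, the adult beta globin, gave 2, 18 and 0 UMIs in the class, against 1, 24 and 0 UMIs in the deeper barcodes. The whole erythrocyte list gave 59 UMIs in the hCD33m class, against 377 UMIs in the deeper barcodes, a log2 ratio of 3.02. Of it, 6 genes were kept for being under 5 CPM in the deeper barcodes of each library, which favours the class. In hCD33m, 33 low-complexity barcodes held 55 UMIs of these 6 genes. Those barcodes were 29 of the 279 above the Gm42418 line and 4 of the 189 below it. After thinning to 500 UMIs the share of hCD33m barcodes with such a UMI was 4.93% (3.15 to 7.30%) in the class, against 0.0678% in the deeper barcodes, and unthinned it was 7.05 and 0.881%. The same library held 6 neutrophil-list UMIs in 5 low-complexity barcodes and the other libraries none. The source of these UMIs was not tested.

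Meg3, a long noncoding RNA of neurons, gave 0, 5 and 10 UMIs in the class, against 0, 14 and 0 UMIs. Of the neuron list, 10 genes were under 5 CPM in the deeper barcodes of each library. They gave 20, 21 and 22 UMIs in 3, 10 and 5 low-complexity barcodes, while the whole list gave 55, 72 and 51 UMIs. In hCD33M 18 of the 20 lay in 1 barcode, which held Nrgn and Snhg11 and 1 microglial UMI, and in Control 13 of the 22 lay in 1 barcode with 5 microglial UMIs. Of 48 markers of other cell types that were low in the deeper barcodes, 33, 25 and 32 had no UMI in the class. At least 1 such UMI at equal depth was held by 2.14, 8.99 and 3.05% of low-complexity barcodes, against 0.593, 0.858 and 0.936%. The markers were kept for being low in those same deeper barcodes, so this comparison favours the class and shows no excess by itself. Without that filter the log2 ratios were 0.59, 0.44 and 1.12 for the neuron list and 0.25, -0.04 and 0.30 for the astrocyte list. The oligodendrocyte list was at -0.44, -0.12 and -0.24.

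Markers of macrophages at the brain's borders stood higher in the class, with most of their UMIs from 1 gene. That gene, Stab1, gave 170 of 196, 367 of 535 and 142 of 203 UMIs, so the others rest on few. Of the listed genes with at least 20 CPM in the higher sum, 1 of 3, 6 of 7 and 5 of 5 were at least 2-fold higher. The shares over all genes were 13.5%, 10.7% and 12.1%. Stab1, a scavenger receptor of such macrophages that microglia also express, was at 604, 800 and 654 CPM in 108, 224 and 94 low-complexity barcodes, against 244, 290 and 240 CPM, a log2 ratio of 1.41 ± 0.09. Mrc1, the mannose receptor, was at 35.5, 126 and 82.9 CPM, against 44.8, 48.0 and 27.5 CPM, and Pf4, a chemokine that marks these macrophages, at 14.2, 95.9 and 78.3 CPM, against 37.3, 46.4 and 23.4 CPM. Stab1 was thus higher in each library, whereas Mrc1 and Pf4 were higher in hCD33m and Control and lower in hCD33M. Plac8, a gene of monocytes, gave 0, 0 and 1 UMI in the class, against 668, 611 and 448 UMIs.

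Between genotypes, the class differed by few genes at 100 CPM or more. For hCD33M over Control 36 of 2138 genes (1.68%) were at least 2-fold higher and 10 (0.468%) lower, for hCD33m over Control 27 of 2140 (1.26%) and 22 (1.03%), and for hCD33m over hCD33M 16 of 2141 (0.747%) and 14 (0.654%). The same genes in the deeper barcodes gave 1 higher and 1 lower, 4 and 0, and 6 and 2. The sums of the class hold about 1 in 100 of the UMIs of the deeper barcodes, and these comparisons share libraries. Several of the differences came from single barcodes. In hCD33M 116 of 139 Cd74 UMIs and 42 of 45 H2-Eb1 UMIs, both genes of MHC class II antigen presentation, lay in 1 barcode, and in Control 122 of 140 Gm26870 UMIs did.

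Cx3cr1 was lower in both transgenic libraries. Its summed level in the class was 3715 CPM (hCD33M) and 3154 CPM (hCD33m), against 6160 CPM (Control), and at 3201, 3026 and 5414 CPM in the deeper barcodes, so the class kept the difference of its library. Gm47283, a predicted gene, had 380 CPM in the hCD33M class against 92.1 CPM in that of Control, and 133 against 30.4 CPM in the deeper barcodes. Rgs1, which encodes a GTPase-activating protein for G-protein subunits, had 209 CPM in the hCD33m class against 41.4 CPM in that of Control, and 183 against 92.1 CPM in the deeper barcodes. Tsc22d3, a glucocorticoid-induced gene, had 139 CPM in the hCD33m class against 32.2 CPM in that of Control, and 130 against 36.3 CPM in the deeper ones. These 4 genes differed in the same direction in the deeper barcodes of the same libraries, but others did not. Pcif1, which encodes an mRNA cap methyltransferase, had the highest log2 ratio of hCD33M over Control in the class (2.16, from 29 and 5 UMIs) and -0.13 in the deeper barcodes. Fos, an immediate-early transcription factor, was at -0.17 for hCD33m over Control in the class (-0.92 to 0.61, from 45 and 24 UMIs) and at 1.30 in the deeper barcodes. The study's other early-response genes were above 0 in both. In the class and the deeper barcodes they were Fosb (2.24, 1.44), Klf2 (1.01, 1.01), Zfp36l1 (0.65, 0.77) and Egr1 (0.56, 0.56). Btg1 (0.56, 0.44), Rhob (0.50, 0.42), Jun (0.15, 0.40) and Btg2 (0.10, 0.62) followed. In the class the intervals of Klf2, Egr1, Jun and Btg2 included 0. None of these differences has a replicate.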

How the data were processed

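Sorted brain microglia of 3 genotypes were profiled on the 10x Chromium 3′ platform, 1 library each. The authors aligned reads to mm10 with Cell Ranger 3.0.0 and deposited raw UMI counts after keeping barcodes with over 200 genes and genes found in at least 3 cells. The libraries held 5100, 5707 and 3482 barcodes and 28387611, 32572995 and 21529542 UMIs in hCD33M, hCD33m and Control.

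Counts were summed over the class and over barcodes with 1500 to 3500 genes, scaled to CPM and compared as log2 ratios. Sums under 3 UMIs were set to a floor of 3 UMIs for the ratios, and the 95% intervals were exact conditional ones. No doublet caller was run. Genes called 2-fold apart had at least 20 CPM in the higher sum. Named genes were those of the class rule, Xist, 8 microglial genes, up to 4 members of each list with its highest and lowest ratios, and the 10 highest and 10 lowest mean ratios among genes with at least 100 CPM in the higher sum of each library and the same sign in all 3, and between genotypes the 5 highest and 5 lowest of each pair. Other genes named, among them those of the split by Gm42418, were chosen after their values were seen. Some genes that the rule named are not reported here. The class, the lists and the comparisons were chosen with earlier results of these data known. Barcode sequences shared between libraries numbered 10 for hCD33M and hCD33m, 7 for hCD33M and Control and 10 for hCD33m and Control. Thinning drew 500 UMIs per barcode and left out 1 hCD33m barcode of the class. Transcript lengths and sequences came from GENCODE vM21 for mm10, in which 15166 of 15338 gene symbols matched. TMM factors (edgeR 4.0.16) and size factors (DESeq2 1.42.0) were used for scaling alternatives only. The work was done in R 4.3.3 and in Python 3.11.15 with scipy 1.17.1, pandas 2.3.3 and numpy 2.4.6, and the ratio and interval functions were tested on simulated counts.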

Additional observations from a re-analysis of the deposited data

Results flagged for a closer look

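The mitochondrial list moved in opposite directions in the libraries. Over the barcodes with 1500 to 3500 genes of its own library, the class had a log2 ratio of -0.36 in hCD33M and of -0.16 in hCD33m, against 0.32 in Control. Each value comes from 1 library, and the difference between the libraries was not tested.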

How the results depend on the processing

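Reversal was looked for in single named genes whose mean was at least 2-fold apart, without Ttr, Cxcl13, Hbb-bs, Meg3 and Xist, and none reversed. Most genes 2-fold apart were higher with plain CPM but lower with TMM or DESeq2 factors. Mean ratios near 0 changed sign in some alternatives for Csf1r, Cx3cr1 and Tmem119 (-0.06 against barcodes with 1000 up to 1500 genes). The mitochondrial list did so too (0.026 with totals that left out rRNA-derived, mt- and Malat1 UMIs). Values were called unmoved within a set fold range for counts of genes, the exact interval for shares and the SD over libraries for ratios. Of the values that answer a comparison 137 stayed by these limits and 50 moved, and of those of single genes 315 stayed and 97 moved. Some alternatives left out no more than 1 barcode of the class per library, so little could move in them. Values below are for hCD33M, hCD33m and Control. The share of the class was 4.14, 6.50 and 4.07% with a limit of 800 genes, 6.72, 9.76 and 7.62% with 1200, 6.31, 9.71 and 7.48% with no mt- limit, and 7.55% (hCD33m) and 4.96% (Control) with at most 5% mt- UMIs. Set against the nearest deeper barcodes, those with 1000 up to 1500 genes, 606 (hCD33M) and 501 (hCD33m) genes were 2-fold higher and 484, 413 and 336 lower. With TMM factors 458, 325 and 545 were higher and 1378, 1252 and 1152 lower, and with DESeq2 factors 593 (hCD33M) and 476 (hCD33m) were higher. With no minimum level 6087, 5538 and 5997 were higher, and with at least 100 CPM 280, 229 and 208 were higher and 262, 242 and 229 lower. Mean log2 ratios of nuclear long RNAs were 0.43 with a limit of 800 genes, 0.18 with at most 5% mt- UMIs, 0.053 against the nearest deeper barcodes, 0.11 with TMM, 0.20 with DESeq2 factors and 0.45 with totals that left out rRNA-derived, mt- and Malat1 UMIs. Those of microglial markers were -0.56 with 800 genes, -0.39 against the nearest deeper barcodes, -0.50 as mean shares per barcode, -0.70 with TMM, -0.60 with DESeq2 factors and -0.35 with the reduced totals. Against the nearest deeper barcodes the rRNA-derived list was at 0.95 and ribosomal proteins at -0.31 (with the class higher in Control), and ribosomal proteins were at -1.13 with TMM and -1.03 with DESeq2 factors. The mitochondrial list was at -0.76 with at most 5% mt- UMIs. The causes of these shifts were not tested. The share of the class above 3% Gm42418 was 61.2, 63.7 and 52.8% with a line at 2% and 49.5, 38.9 and 46.7% with one at 5%, both chosen after seeing the data. No paired analysis was possible because each genotype had 1 library, and for the same reason no library could be left out within a genotype.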
